A study of Rattus norvegicus with 21 samples.

Results

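The genes described here encode the proteins of the cytosolic ribosome. A gene was a member when its symbol was Rpl or Rps followed by a number and at most 1 letter, or was Rplp0, Rplp1, Rplp2 or Rpsa, with the kinases of ribosomal protein S6 and pseudogene symbols left out. Of 13438 genes with a probe set carrying a single symbol, 38 were members, 27 of the large and 11 of the small subunit. A gene was read through the single-symbol probe set (a group of probes for 1 transcript) with the highest mean over the arrays. Probe sets that carry several symbols were not members, which leaves out, for example, Rplp1, Rplp2, Rps7 and Rps27a.

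RNA came from INS-1, an insulin-secreting rat insulinoma line used in place of primary beta cells, with 1 Affymetrix array per sample. The 21 arrays formed 7 groups of 3. Untransfected INS-1 cells were measured without cytokines only. The line pcDNA, INS-1 stably transfected with an empty vector, and pCTSH#1, 1 clone of INS-1 stably overexpressing the lysosomal protease cathepsin H (CTSH), were measured at 0 h and after 6 h and 16 h with 150 pg/ml recombinant mouse IL-1β and 5 ng/ml recombinant rat IFNγ. All cells were precultured for 3 days. Transfected cells without cytokines were measured at 0 h only, so the cytokines and the additional time in culture cannot be told apart. The labels number the replicates without saying whether they were separate cultures, and the p-values therefore measure the spread between these arrays, which may be technical.

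The cytosolic ribosome joins a small subunit, which reads the mRNA, to a large subunit, which forms the peptide bond, and most of its proteins are normally needed in equal number. Their mRNAs are among the most abundant of any cell and typically begin with a 5′ terminal oligopyrimidine tract (TOP), through which mTOR signalling controls their translation more than their amount. In beta cells IL-1β together with IFNγ is known to induce nitric oxide synthase, endoplasmic reticulum stress and lowered protein synthesis.

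All 7 measured beta cell markers were above the background on all 21 arrays, and 13 of 16 markers of other cell types were at or under it on most arrays. The exceptions were Cd68, Gcg and Pdgfra, whose group means lay between 4.65 and 5.89, 6.26 and 8.88, and 3.95 and 5.89 on the log2 scale. Background was the highest nonspecific control of each array, between 3.88 and 4.17. Nos2, the inducible nitric oxide synthase, had group means of 3.41 to 3.67 without cytokines and reached a group mean of 7.02. The rat Ctsh probe set was at or under background on 14 of 21 arrays, and the sources used here do not say whether it detects the transfected sequence. Replicates of a group correlated at 0.9919 to 0.9968 over all probe sets.

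Many members had a run of pyrimidines near the annotated start, a feature that the choice by symbol did not use. In fewer of them the run lay over the start itself, where a TOP tract begins. RefSeq gave a promoter window of 300 bases (250 before and 50 after the start, build GRCr8) for 31 of the 38 members. Within the 30 bases around the start, 20 of these 31 (64.5%) held an unbroken run of at least 8 pyrimidines on the strand that reads as the mRNA, against 11.4% of all 33469 promoter windows. A run of that length lay over the start base in 12 of the 31 (38.7%), against 4.43% of all windows. The start base was a C followed by at least 4 pyrimidines in 10 members, against 2.63% of all windows. Windows of 6 members are printed below, 15 bases on each side of the start. They span members that changed least and most over the cytokine course. The longest run of at least 8 pyrimidines is in capitals, and in Rpl13a and Rps15a it ends before the start base.
Rplp0 (chr12:46718376-46718405, minus strand): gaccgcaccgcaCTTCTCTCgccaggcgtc
Rpl19 (chr10:83519049-83519078, plus strand): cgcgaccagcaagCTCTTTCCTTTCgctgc
Rpl35a (chr11:81235007-81235036, minus strand): gcgggtcttgCCTTCCTCTTTCCgccatct
Rpl13a (chr1:104748899-104748928, minus strand): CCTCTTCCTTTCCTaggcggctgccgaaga
Rps15a (chr1:181860270-181860299, minus strand): cggcgTTTTCTTTCCacagtcaccatggtg
Rpl12 (chr3:36661925-36661954, plus strand): ggagcaacatccgtcttttcggctttcggt

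The Rpl12 window had no run of that length, since 2 guanines break its pyrimidines near the start. A shorter run, tcttttc, lies over the start. Of the 8 members that were higher at 16 h in either line, 7 had a window and 3 of these held a run, while 17 of the 24 windows of the other members held one. This split was not tested. Over the whole window of 300 bases and both strands, CCGGAAG, the core bound by ETS factors, was found in 10 of 31 members and 8.75% of all windows. AAGATGG, the core bound by YY1, was found in 7 of 31 and 7.01%. TATAAA, the core promoter element, was found in 5 of 31 and 14.2%. These are matches of letters, and no binding was measured.

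Most members were among the brightest signals of the arrays. Of the 38, 34 had a mean log2 signal above 11, and each of these 34 was brighter than at least 98.9% of all 31042 probe sets tested. Rpl27a (13.45), Rpl5 (13.30) and Rpl19 (13.26) had the highest means. A signal depends on the probes as well as on the mRNA, so these values do not rank one gene's mRNA against another's. The remaining 4 members were dim. Rpl30 read 3.89 and was at or under background on 18 of 21 arrays, Rps13 read 5.13, Rpl3l 5.36 and Rpl39 7.49. RPL3L is the paralog of RPL3 found mainly in striated muscle, and RPL39 is a short protein at the exit tunnel of the large subunit.

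The bright members varied little between replicates. Their median SD within a group was 0.04 log2 units (0.02 to 0.07 over the 34), against 0.15 over all probe sets tested. The limma fit moderates each probe set's spread towards a prior SD of 0.14, and the standard error of a difference between groups of 3 arrays was 0.06 in the median over these 34. In an alternative fit whose prior follows the signal and is estimated robustly, it was 0.04. Differences of about 0.1 log2 units in a bright member were therefore too small for the first fit to call. They are given by both fits where the number of calls differs. A call means an adjusted p below 0.05, with Benjamini-Hochberg adjustment over all 31042 probe sets of a comparison.

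After 6 h of cytokines the ribosomal protein mRNAs showed almost no change. In pcDNA, 0 of 38 members were called by limma, and 0 had an unadjusted p below 0.05, while 30.6% of all probe sets were called. The alternative prior called 3, all lower: Rpl28 (-0.12), Rpl18 (-0.11) and Rps15 (-0.12). It called 9791 of all 31042 probe sets, 5993 of them lower. In pCTSH#1 1 member was called against a background of 26.8%. The alternative prior, which called 8612 of all 31042 probe sets there, added Rpl28 (-0.10). The member called by both was Rpl39, which read 7.35, 7.48 and 7.37 at 0 h and 7.80, 7.69 and 7.91 at 6 h. The 3 arrays at 6 h lay above the 3 at 0 h, and the difference was 0.40 ± 0.12 (SE, n = 3 per group, limma adjusted p = 0.0139). The call was lost without replicate 3 at 6 h (adjusted p = 0.0702). In pcDNA the Rpl39 values at 6 h were 7.62, 7.44 and 7.59 against 7.44, 7.11 and 7.43 at 0 h, which overlapped, and its difference of 0.22 ± 0.12 was not called (adjusted p = 0.174). The median difference of the 38 members at 6 h was -0.02 in each line (0.01 in pcDNA after cyclic loess scaling), against -0.04 over all probe sets.

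After 16 h the first limma fit called a minority of members higher, by small amounts. In pcDNA 7 of 38 members were higher and 0 lower, where 46.4% of all probe sets were called and 21.3% were called higher. In pCTSH#1 6 were higher and 1 lower, where 46.4% of all probe sets were called and 20.8% were called higher. In this fit the share of members that rose, 18.4% and 15.8%, was thus no larger than that of all probe sets. With the alternative prior and under both other scalings, given below, the share of members called higher was larger than that of all probe sets. Rpl12, Rpl3, Rpl4, Rps15a and Rpsa were called in both lines, Rpl11 and Rps9 in pcDNA, and Rpl13a in pCTSH#1. Both lines were compared with their own arrays at 0 h.

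Rpl12 rose most. It encodes a protein at the base of the large-subunit stalk, where elongation factors bind. In pcDNA it read 12.33, 12.36 and 12.30 at 0 h, 12.33, 12.33 and 12.40 at 6 h, and 12.79, 12.82 and 12.77 at 16 h. In pCTSH#1 the values were 12.26, 12.35 and 12.37, then 12.30, 12.29 and 12.37, then 12.82, 12.77 and 12.74, and the untransfected cells read 12.36, 12.31 and 12.36. All 6 arrays at 16 h lay above the other 15. The difference from 0 h was 0.46 ± 0.06 in pcDNA (1.38-fold, limma adjusted p = 3.9e-06) and 0.45 ± 0.06 in pCTSH#1 (1.36-fold, 5.62e-06). Of the start windows printed above, that of Rpl12 is the one without a run of 8 pyrimidines, though it holds a shorter one. A link between such runs and the change at 16 h was not tested.

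Rpl3, whose protein reaches to the peptidyl transferase centre, showed the same course. In pcDNA it read 13.13, 13.12 and 13.09 at 0 h and 13.35, 13.43 and 13.35 at 16 h. In pCTSH#1 it read 13.10, 13.07 and 13.09 at 0 h and 13.30, 13.36 and 13.33 at 16 h. The groups did not overlap in either line, and the differences were 0.26 ± 0.06 (limma adjusted p = 0.00125) and 0.25 ± 0.06 (0.00222). A second, dim Rpl3 probe set (mean log2 signal 4.72) was also higher, by 0.45 ± 0.07 and 0.52 ± 0.07. Rpl12 and Rpl3 were called at 16 h whichever single array of the comparison was left out.

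Rpl4, whose protein lines the exit tunnel, read 12.34, 12.36 and 12.43 at 0 h and 12.60, 12.73 and 12.52 at 16 h in pcDNA. In pCTSH#1 it read 12.39, 12.42 and 12.42 at 0 h and 12.61, 12.67 and 12.54 at 16 h. The 16 h arrays of each line lay above its 0 h arrays, and the differences were 0.24 ± 0.07 (limma adjusted p = 0.00644) and 0.19 ± 0.07 (0.0331). The call in pCTSH#1 was lost without any 1 of 5 of its 6 arrays and was kept without replicate 3 at 16 h, with adjusted p up to 0.123 where it was lost.

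Among the small-subunit members, Rps15a read 12.58, 12.67 and 12.64 at 0 h and 12.88, 12.90 and 12.81 at 16 h in pcDNA. In pCTSH#1 it read 12.62, 12.61 and 12.61 and then 12.84, 12.83 and 12.75. Its arrays at 16 h did not overlap those at 0 h, with differences of 0.24 ± 0.06 (limma adjusted p = 0.00427) and 0.19 ± 0.06 (0.0196). The call in pCTSH#1 was lost without replicate 1 or 2 at 16 h (0.0628 and 0.0604).

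Rpsa, a small-subunit protein also known as the laminin receptor, read 11.77, 11.87 and 11.78 at 0 h and 12.00, 12.05 and 11.98 at 16 h in pcDNA. In pCTSH#1 it read 11.95, 11.94 and 11.85 and then 12.11, 12.10 and 12.06. The arrays at 16 h again lay above those at 0 h within each line. The differences were 0.21 ± 0.07 (limma adjusted p = 0.0185) and 0.18 ± 0.07 (0.0434). Leaving out pcDNA replicate 1 or 3 at 0 h, or replicate 2 at 16 h, ended the first call (0.0554 to 0.0626). The second was lost without any 1 of the 6 arrays (0.0543 to 0.148). The other 2 Rpsa probe sets were called higher in both lines, by 0.31 and 0.22 in pcDNA and by 0.49 and 0.23 in pCTSH#1.

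Rps9, a protein of the body of the small subunit, was higher at 16 h by 0.17 ± 0.06 in pcDNA (limma adjusted p = 0.0265) and by 0.12 ± 0.06 in pCTSH#1, where it was not called (0.129). Rpl11 differed by 0.19 ± 0.07 in pcDNA (0.0237) and by 0.11 ± 0.07 in pCTSH#1 (0.205). In pcDNA each of these 2 calls was lost in 4 of 6 fits that left out an array. For Rps9 the array left out was replicate 1 or 3 at 0 h, or 1 or 2 at 16 h (0.0588 to 0.082). For Rpl11 it was replicate 1 or 2 of either group (0.0586 to 0.092). Rpl13a, which in myeloid cells is released from the ribosome after IFNγ to silence inflammatory mRNAs, differed by 0.19 ± 0.07 in pCTSH#1 (0.0433) and by 0.14 ± 0.07 in pcDNA (0.13). In pCTSH#1 its 0 h arrays spread widely, at 12.44, 12.56 and 12.70, while the 16 h arrays read 12.77, 12.75 and 12.76. That call was kept only without replicate 3 at 0 h, and without replicate 1 at 0 h the difference was 0.13 (0.228). The lines were not shown to differ in these 3 genes: the smallest adjusted p of any member for a difference between the 16 h responses was 0.845.

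**Figure D1:**
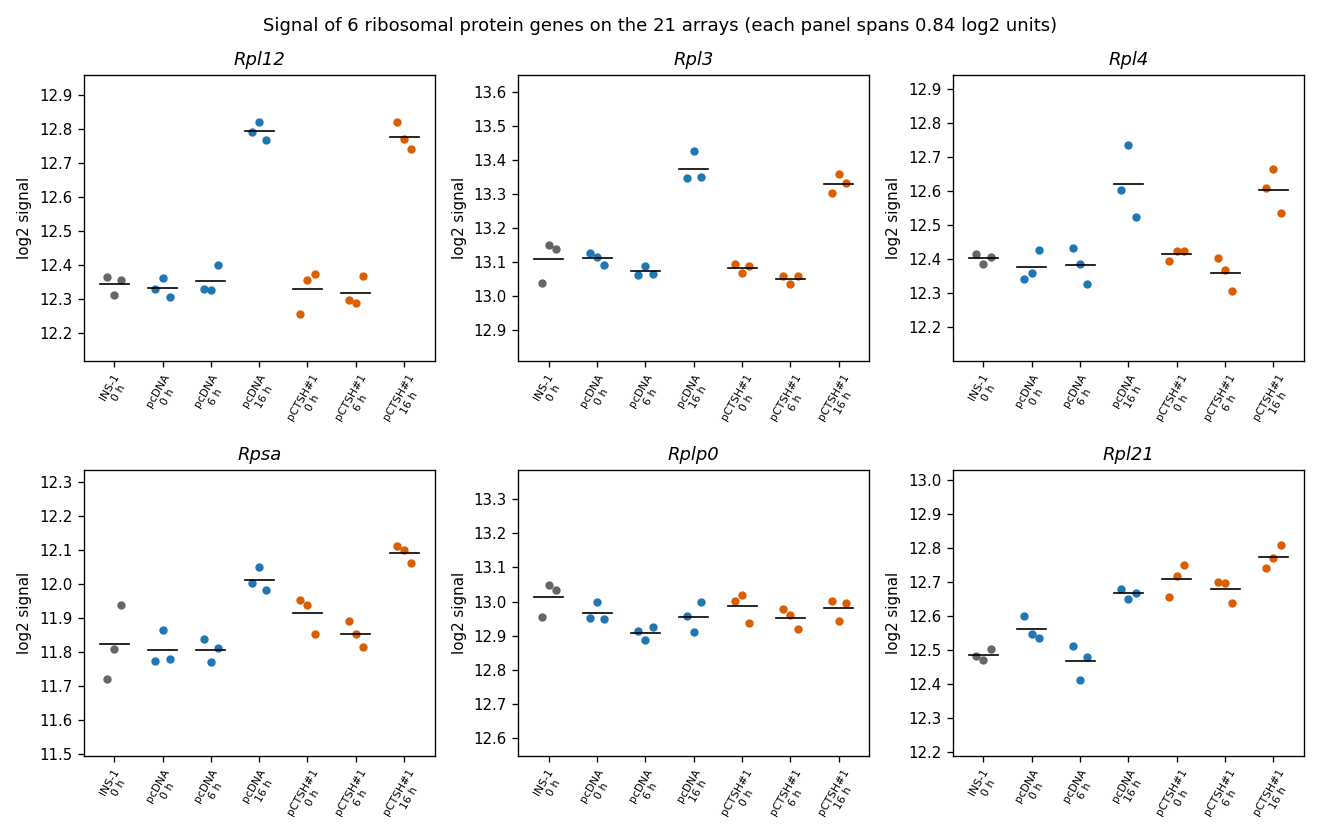
Log2 signal (vertical axis, each panel at the same scale) of Rpl12, Rpl3, Rpl4, Rpsa, Rplp0 and Rpl21 on the 21 arrays, by line and hours of cytokines (horizontal axis), with points for arrays and a bar for each group mean. Rpl12, Rpl3, Rpl4 and Rpsa are highest at 16 h in both lines, Rplp0 stays between 12.89 and 13.05, and Rpl21 reads higher in pCTSH#1 than in pcDNA at each time.

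RPL5, RPL11, RPL23, RPS3 and others bind the p53 ligase MDM2 when ribosome assembly is disturbed, and RPS6 is the substrate that gives the S6 kinases their name. Of these Rpl11 was called at 16 h, in pcDNA, as given above. Rpl5 differed at 16 h by 0.11 ± 0.06 in each line, Rpl23 by 0.05 ± 0.06 and 0.06 ± 0.06, Rps3 by 0.09 ± 0.07 and 0.03 ± 0.07, and Rps6 by 0.10 ± 0.06 and 0.07 ± 0.06 (pcDNA first). The adjusted p of these 4 in the first limma fit ran from 0.172 to 0.77. In the fit with the alternative prior Rpl5 was called in both lines (0.00528 and 0.00641) and Rps6 in pcDNA (0.0218). The 3 arrays of Rpl5 at 16 h lay above the 3 at 0 h in each line, at 13.38, 13.39 and 13.36 against 13.27, 13.22 and 13.31 in pcDNA.

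Several members read nearly the same at 16 h as at 0 h. Rplp0, the stalk protein that is often used as a reference gene in quantitative PCR, read 12.953, 12.999 and 12.949 at 0 h and 12.958, 12.910 and 12.999 at 16 h in pcDNA, which overlapped, a difference of -0.01 (95% interval -0.14 to 0.12). In pCTSH#1 the difference was -0.01 (-0.14 to 0.13). Rps29 (range of the 7 group means 0.05), Rpl19 (0.06) and Rpl32 (0.06) had the narrowest ranges, and Rpl27a also spanned 0.06. Rpl19 differed at 16 h by -0.01 (-0.14 to 0.11) in pcDNA and 0.01 (-0.12 to 0.13) in pCTSH#1. The widest ranges belonged to Rpl3l (0.77), Rps13 (0.57) and Rpl39 (0.54), which are 3 of the 4 dim members.

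Rpl3l was the only member called lower at 16 h than at 0 h in the first limma fit, and in pCTSH#1 alone. In pCTSH#1 it read 5.42, 5.88 and 6.07 at 0 h and 5.22, 5.47 and 4.75 at 16 h. These arrays overlapped, since replicate 1 at 0 h lay below replicate 2 at 16 h. The difference was -0.64 ± 0.19 (limma adjusted p = 0.00708). Leaving out replicate 3 of either group ended the call (0.0508 at 0 h and 0.062 at 16 h), as did cyclic loess scaling of the arrays (-0.46). In pcDNA the difference was -0.35 ± 0.19 (0.139). Rpl3, its paralog, was higher at 16 h in both lines. Rps13 read 4.47, 5.77 and 5.88 on the 3 arrays of pCTSH#1 at 16 h, the widest spread of any member in a group.

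Most members lay slightly above their 0 h level at 16 h even where they were not called. The median difference of the 38 was 0.09 in pcDNA and 0.07 in pCTSH#1, against a median of all probe sets between -0.01 and 0.01 in both. In pcDNA 27 of 38 differences were above 0 and in pCTSH#1 29. In each line 20 members had all 3 arrays at 16 h above all 3 at 0 h, against 24.2% of all probe sets in pcDNA and 23.4% in pCTSH#1. In each line 1 member had all 3 below, against 8597 and 8680 of all 31042 probe sets. It was Rpl41 in pcDNA (group means 12.98 at 0 h and 12.92 at 16 h) and Rpl28 in pCTSH#1 (12.73 and 12.65). With the prior that follows the signal, 16 members were called in each line (1 of them lower, in pCTSH#1), where 46.6% and 46.5% of all probe sets were called. Called higher by that fit were 16 and 15 of the 38 members, against 6643 and 6460 of all 31042 probe sets. Averaged over the 34 bright members, the 6 arrays at 16 h read 12.82 to 12.84 and the other 15 read 12.70 to 12.77. All 6 thus lay above all 15.

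The number of calls depended on how the arrays were scaled to each other. The deposited values were already normalized, and they are relative signals, so that fewer cells, less RNA per cell and a changed total of mRNA cannot be told apart. Centring each array on its median raised the number of members called at 16 h from 7 to 19 in pcDNA and from 7 to 14 in pCTSH#1, and the median differences to 0.18 and 0.16. It also raised the median of all probe sets, to 0.095 and 0.083, so that the members' medians lay above it by 0.09 and 0.08, as in the deposited scaling, and 48.2% and 47.4% of all probe sets were called. Under centring 19 and 13 of the 38 members were called higher, against 26.4% and 25.2% of all probe sets. Cyclic loess scaling gave 27 and 23 calls and medians of 0.23 and 0.19, with medians of all probe sets near 0.01 and 46.7% and 46.3% of all probe sets called. All 27 and 23 were higher, where 24% and 23.6% of all probe sets were called higher. None of the 33 calls of a named member in a comparison changed sign under any setting run. Of these settings, only scaling, averaging of probe sets and leaving out an array can change a sign. In the deposited scaling, other probe sets as bright as the members moved the other way on balance. Of 194 with a mean log2 signal of at least 12 that are not members, 36 were higher and 86 lower at 16 h in pcDNA. In pCTSH#1 36 were higher and 80 lower, and the medians were -0.14 and -0.11 (pcDNA first). Under centring and cyclic loess these bright probe sets were not counted, so the members are set there beside all probe sets only.

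**Figure D2:**
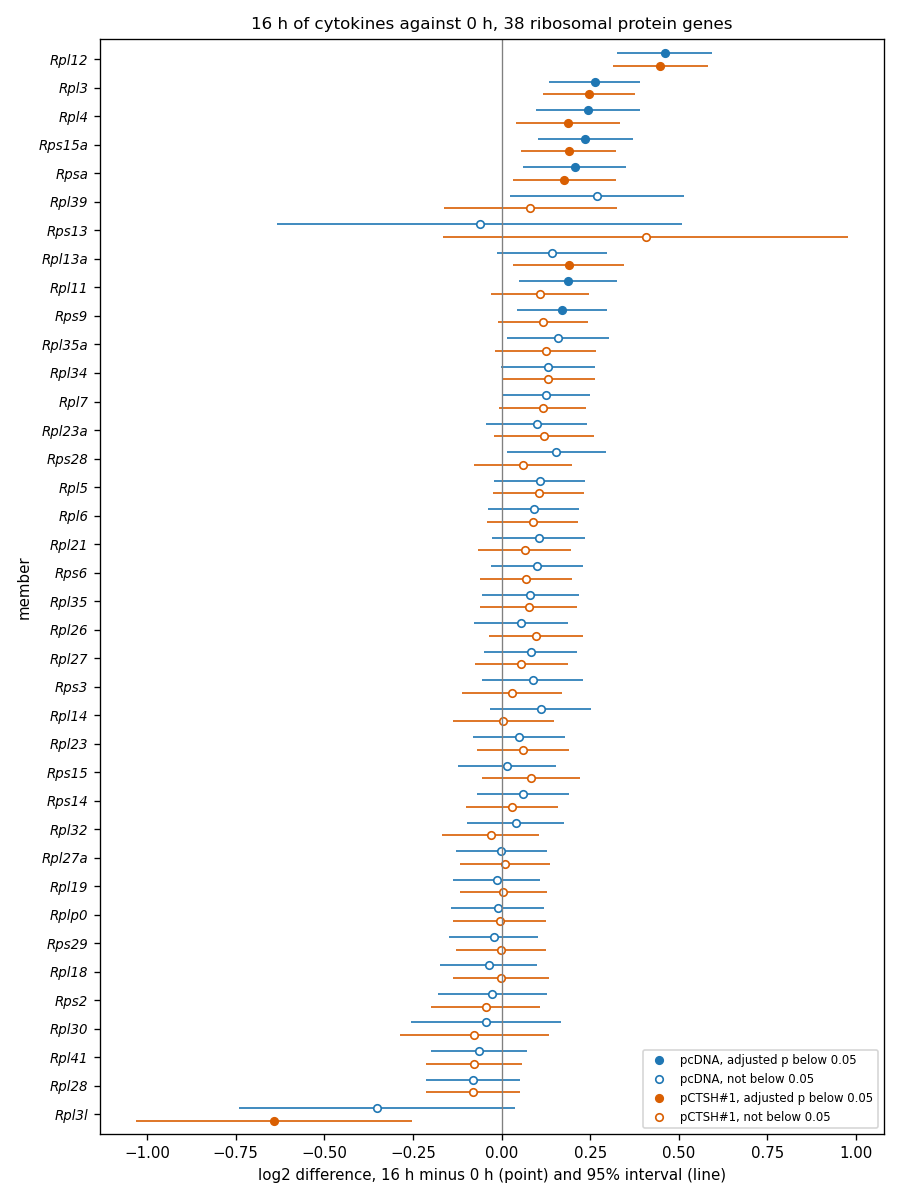
Difference between 16 h and 0 h on the log2 scale (horizontal axis, point with 95% interval of the limma fit) for the 38 members (vertical axis, ordered by the mean of both lines), in pcDNA and pCTSH#1, with filled points for adjusted p below 0.05. Rpl12 stands at the top with 0.46 and 0.45, most intervals of the bright members span 0, and Rpl3l is lowest with -0.35 and -0.64.

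The rise took place after 6 h. From 6 h to 16 h 10 members were higher and 0 lower in pcDNA, where 42.2% of all probe sets were called and 20.2% were called higher. In pCTSH#1 6 were higher and 2 lower, where 41.3% were called and 19.4% were called higher. Rpl12 (0.44 ± 0.06 and 0.46 ± 0.06), Rpl3 (0.30 ± 0.06 and 0.28 ± 0.06), Rpl4 (0.24 ± 0.07 in each), Rps9 and Rpsa were called in both lines. Rpl11, Rpl21, Rpl34, Rpl35a and Rps15a were called in pcDNA and Rpl13a in pCTSH#1. Of the higher calls, those of Rpl12 and Rpl3 in both lines, of Rps9 in pcDNA and of Rpl4 and Rpsa in pCTSH#1 were kept whichever single array of the comparison was left out. In pcDNA those of Rpl11, Rpl34 and Rpl35a were each lost in 5 of 6 such fits and kept only without replicate 3 at 16 h (0.0504 to 0.152 where lost). Those of Rps15a and Rpsa were lost without replicate 2 at 6 h or at 16 h (0.053 to 0.0742), that of Rpl21 without replicate 2 at 6 h (0.0696) and that of Rpl4 without replicate 2 at 16 h (0.0602). In pCTSH#1 the call of Rps9 was lost without any 1 of the 6 arrays (0.0623 to 0.0801), and that of Rpl13a without replicate 1 at 6 h (0.0615). The 2 lower ones were Rpl39 (-0.32 ± 0.12, limma adjusted p = 0.0347) and Rpl3l (-0.47 ± 0.19, 0.0493). Rpl39 read 7.16, 7.64 and 7.64 at 16 h in pCTSH#1, and without the low replicate 1 the difference was -0.16 (0.267). The Rpl3l call was also lost in 5 of 6 fits that left out an array, and kept only without replicate 2 at 16 h. Comparisons with 0 h and with 6 h share the arrays at 16 h.

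Between the cathepsin H clone and the empty-vector line no member was called by the first limma fit, and Rpl21 was called higher in the clone by other fits. The background was 1.87% of all probe sets called at 0 h, 2.86% at 6 h and 3.8% at 16 h. At an unadjusted p below 0.05 there were 1 (Rpl21), 3 (Rpl21, Rpl39 and Rpl3l) and 0 members. The alternative prior called 1, 1 and 0 members, where it called 726, 1100 and 1479 of all 31042 probe sets. At 6 h 1 member was also called among the brighter 50% of probe sets and with each gene's probe sets averaged. The differences of the 34 bright members lay between -0.06 and 0.15 at 0 h, between -0.09 and 0.21 at 6 h and between -0.07 and 0.11 at 16 h. Their 95% intervals reached from -0.24 to 0.34 over the 3 times. For 32, 33 and 33 of the 34 the difference was within 0.1 of 0. No member was called for a difference between the lines in the response to 6 h (background 0.103%) or 16 h (0.213%) of cytokines by either fit, and 0 had an unadjusted p below 0.05. The intervals of those differences for the 34 bright members reached from -0.31 to 0.29.

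Among the bright members Rpl21 had the widest difference between the lines at each of the 3 times. It read 12.60, 12.55 and 12.54 in pcDNA and 12.65, 12.72 and 12.75 in pCTSH#1 at 0 h. At 6 h it read 12.51, 12.41 and 12.48 in pcDNA and 12.70, 12.70 and 12.64 in pCTSH#1, and at 16 h 12.68, 12.65 and 12.67 and then 12.74, 12.77 and 12.81. The arrays of pCTSH#1 lay above those of pcDNA at each time. The differences were 0.15 ± 0.06, 0.21 ± 0.06 and 0.11 ± 0.06 (limma adjusted p = 0.41, 0.0891 and 0.457), and none was called. With the alternative prior the first 2 were called (0.0208 and 3.2e-04) and the third was not (0.0976).

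No member was called between the empty-vector line and untransfected cells. Between pcDNA and untransfected INS-1 cells at 0 h, 0 members were called (background 0.00966%), with 0 at an unadjusted p below 0.05 and 0 with the alternative prior. The bright members differed by -0.07 to 0.08. Between pCTSH#1 and untransfected cells 0 were called (background 2.57%). Rpl21 read 12.48, 12.47 and 12.50 in untransfected cells, and pCTSH#1 was 0.22 ± 0.06 higher (adjusted p = 0.0692), with the alternative prior 1.49e-04. It was the 1 member with an unadjusted p below 0.05 there.

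**Figure D3:**
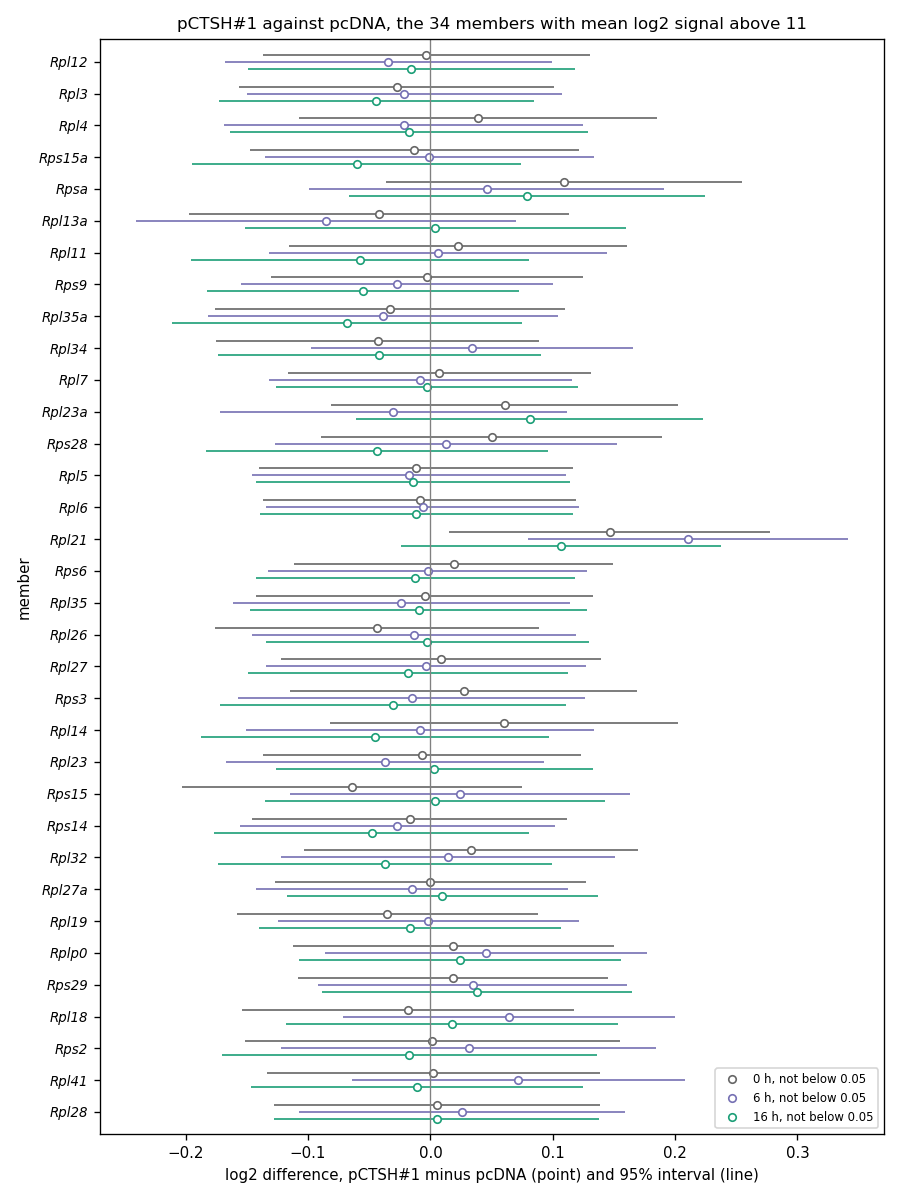
Difference between pCTSH#1 and pcDNA on the log2 scale (horizontal axis, point with 95% interval of the limma fit) at 0 h, 6 h and 16 h for the 34 bright members (vertical axis, in the order of the 16 h response). No point passes an adjusted p of 0.05, and Rpl21 lies farthest from 0 with 0.15, 0.21 and 0.11.

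A large share of the genes that build ribosomes was called at 16 h. For this and the following lists the background was 46.4% of all probe sets called in each line, 21.3% higher in pcDNA and 20.8% higher in pCTSH#1. Of 13 measured genes of the RNA polymerase I machinery, which transcribes ribosomal RNA, 10 were higher and 0 lower at 16 h in pcDNA and 11 and 0 in pCTSH#1, with median differences of 0.67 and 0.43. The subunit genes Polr1a (1.05 ± 0.15 and 0.96 ± 0.15) and Polr1b (1.05 ± 0.13 and 0.94 ± 0.13) and the factor gene Taf1d (1.30 ± 0.14 and 1.33 ± 0.14) rose in both lines. Of 50 ribosome assembly factors, 30 were higher and 8 lower in pcDNA and 27 and 7 in pCTSH#1, with medians of 0.33 and 0.28. The list holds Aar2, an assembly factor of the U5 particle of the spliceosome and not of the ribosome, which fell by 0.77 ± 0.09 and 0.97 ± 0.09, and without it the counts were 30 and 7 of 49 in pcDNA and 27 and 6 in pCTSH#1. Nmd3, the export adaptor of the large subunit, rose by 1.47 ± 0.10 and 1.36 ± 0.10, and Nob1, the nuclease that finishes 18S rRNA, by 1.16 ± 0.10 and 1.07 ± 0.10. Tsr2, which escorts the small-subunit protein RPS26, fell by 1.07 ± 0.08 and 1.18 ± 0.08, and Nhp2, a protein of the H/ACA particles that modify rRNA, fell by 0.68 ± 0.10 and 0.74 ± 0.10.

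Translation factors and other genes listed for their TOP mRNAs went both ways. Of 12 measured, 5 were higher and 3 lower at 16 h in pcDNA and 5 and 2 in pCTSH#1. Of these 12, 9 have symbols of initiation or elongation factors, with 4 higher and 2 lower in each line. Of the other 3, Naca, of the complex that binds nascent chains, rose in both lines (0.36 ± 0.08 and 0.30 ± 0.08), and Nap1l1, a histone chaperone, fell in pcDNA (-0.20 ± 0.07, limma adjusted p = 0.0241) and was not called in pCTSH#1 (0.323). Eif4b (0.58 ± 0.07 and 0.46 ± 0.07) and Eif4a2 (0.51 ± 0.08 in each), factors that unwind the 5′ end of mRNA, rose, while Eif3l (-0.27 ± 0.09 and -0.24 ± 0.09) fell. Rack1, a protein of the small subunit that is not named as one, rose by 0.21 ± 0.06 in pcDNA (limma adjusted p = 0.00637) and 0.20 ± 0.06 in pCTSH#1 (0.0105).

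Genes of the mTOR pathway and its regulators, which govern ribosome production, went both ways at 16 h, with 6 higher and 4 lower of 20 in pcDNA and 7 and 6 in pCTSH#1. Myc, the transcription factor that drives ribosome biogenesis, rose at 16 h by 3.33 ± 0.09 and 3.29 ± 0.09, and Ddit4, an inhibitor of mTOR complex 1, by 2.38 ± 0.09 and 2.45 ± 0.09. At 6 h the list had 3 higher and 6 lower in pcDNA and 0 and 5 in pCTSH#1, where 30.6% and 26.8% of all probe sets were called. Myc had already risen in pcDNA at 6 h (0.93 ± 0.09, limma adjusted p = 7.77e-08) and was not called in pCTSH#1 (0.18 ± 0.09, 0.16). Ddit4 fell first, by 0.28 ± 0.09 at 6 h in pcDNA (0.0285) and by 0.97 ± 0.09 in pCTSH#1 (8.51e-08). Of 12 genes of ribosome stress and quality control 6 were higher and 3 lower in pcDNA and 6 and 4 in pCTSH#1. Mdm2, the partner of the ribosomal proteins named above, rose by 1.59 ± 0.07 and 1.32 ± 0.07, and Gtpbp2, which rescues stalled ribosomes, by 3.19 ± 0.16 and 2.92 ± 0.16. Eif2ak4, the kinase GCN2 that senses stalled ribosomes, fell by 0.75 ± 0.11 and 1.07 ± 0.11.

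Mitochondrial ribosomal protein genes went mostly down over the same time. Of 73, 12 were higher and 41 lower at 16 h in pcDNA and 15 and 41 in pCTSH#1, with medians of -0.32 and -0.31, against 0.09 and 0.07 for the cytosolic members. These lists are described by their counts, and the difference between them was not tested.

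**Figure D4:**
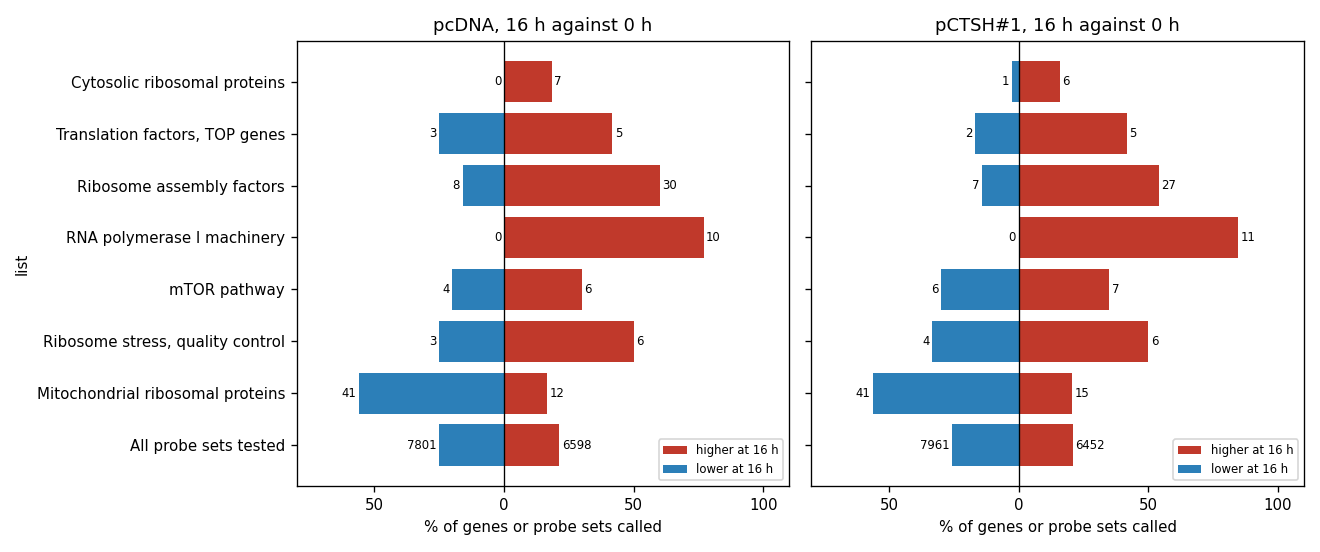
Percentage of genes called higher (right of 0) and lower (left of 0) at 16 h against 0 h (horizontal axis) for each list (vertical axis) and for all probe sets tested, in pcDNA and pCTSH#1, with the number called at the end of each bar. The 38 cytosolic members have 7 higher and 0 lower in pcDNA, while of 13 polymerase I genes 10 are higher and of 73 mitochondrial ribosomal protein genes 41 are lower.

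Other probe sets of ribosomal protein genes were counted too. Of 38 probe sets that carry a member-type symbol together with other symbols, 34 above log2 11, 8 were higher and 2 lower at 16 h in pcDNA and 7 and 2 in pCTSH#1, with medians of 0.07 and 0.06, where 46.4% of all probe sets were called in each line. Against untransfected cells at 0 h, 1 of the 38, a dim one, was called lower in both lines. This probe set carries the symbol Rpl22 together with the pseudogene symbol Rpl22-ps2. It read 4.603, 5.805 and 5.137 in untransfected cells, 3.64, 3.66 and 3.69 in pcDNA and 3.38, 3.39 and 3.44 in pCTSH#1, the last 6 values lying under background. The differences were -1.52 ± 0.18 (limma adjusted p = 0.00154, background 0.00966%) and -1.78 ± 0.18 (7.25e-06, background 2.57%). Ribosomal protein genes have many processed pseudogenes, so that probes of single-symbol sets may detect their transcripts too. Second probe sets of Rpl7, Rpl14 and Rpl28 were not called in either line. Rpl7l1, a nucleolar relative of Rpl7 outside the symbol rule, fell on its brighter probe set by 0.49 ± 0.09 and 0.60 ± 0.09, while Rpl7 differed by 0.13 ± 0.06 and 0.12 ± 0.06 and was not called (limma adjusted p = 0.0935 and 0.124).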

How the data were processed

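The authors deposited 1 table of log2 probe set intensities for the 21 arrays. The submitters' processing notes name RMA, affy and limma, with no versions, and RMA comprises background correction, quantile normalization across arrays and a summary per probe set. RNA (100 ng per sample) had an integrity number above 8.5, per the labels' protocols. Of 31137 probe sets, 95 array controls were left out. Probe sets were named from GEO's platform annotation, in which 19063 of the tested probe sets have 1 symbol, 572 several and 11407 none. One model of the 7 group means was fitted with limma 3.58.1 in R 4.3.3, with 13 contrasts and Benjamini-Hochberg adjustment over 31042 probe sets within each, and was first tested on simulated data. The number of arrays limits the precision.

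Named genes were stalk proteins, members that bind Mdm2, paralogs, the 5 most changed members each way among those called without overlapping arrays, the 3 extremes of level and range, and up to 6 called genes of each other list. Rpl3l at 16 h and Rps13 in pCTSH#1 were described as dim members and paralogs. Named after their values were seen were Rpl18, Rpl28 and Rps15 at 6 h, Rpl28 and Rpl41 at 16 h, and the probe set of Rpl22 at 0 h. The members and lists were chosen with earlier results of these data known.

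The labels do not say that a replicate number marks a shared batch. All 3 correlations of the deviations of same-numbered replicates passed 0.1 in 2 of 21 pairs of groups, namely pcDNA at 0 h with untransfected cells (0.133, 0.149 and 0.130) and with pCTSH#1 at 0 h (0.106, 0.124 and 0.239), and in the other 19 they did not (range over all -0.0903 to 0.244). In those 2 comparisons 0 members were called with the replicate block and without it. Sequences came from RefSeq tables, matched by Entrez ID, and 37 of 38 members matched a current gene.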

Additional observations from a re-analysis of the deposited data

Results flagged for a closer look

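The responses to 6 h of cytokines differed between the lines in 2 of the 20 genes of the mTOR pathway and its regulators, by limma's test of the difference of the responses over all probe sets, of which 0.103% were called. For Myc the response was 0.93 in pcDNA and 0.18 in pCTSH#1, a difference of -0.75 ± 0.13 (adjusted p = 0.0174). The call was lost in 7 of 12 fits that left out 1 array (adjusted p up to 0.0691) and kept with the replicate block (0.0114) and under both other scalings (0.0224 and 0.0159). For Ddit4 the response was -0.28 in pcDNA and -0.97 in pCTSH#1, a difference of -0.69 ± 0.13 (adjusted p = 0.0449). This call was lost in all 12 fits that left out 1 array (up to 0.14), with the replicate block (0.0549) and with arrays centred on their medians (0.0619).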

How the results depend on the processing

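Directions of the 33 calls of named members held under all settings run, while the number of members called did not. Only other scalings, averaged probe sets and a left-out array could change a direction. The remaining settings leave each difference as it is. With arrays centred on their medians the calls were 19 (pcDNA, 16 h against 0 h), 17 (pcDNA, 16 h against 6 h), 14 (pCTSH#1, 16 h against 0 h) and 19 (pCTSH#1, 16 h against 6 h), where the first fit had 7, 10, 7 and 8. With cyclic loess they were 27, 26, 23 and 24, and 1 for pcDNA at 6 h. With the variance trend and robust estimation they were 16, 17, 16 and 18, and at 6 h 3 in pcDNA and 2 in pCTSH#1. Of all 31042 probe sets that fit called 14477, 13247, 14423 and 12922, and at 6 h 9791 and 8612. That fit also gave 1 each for pCTSH#1 against pcDNA at 0 h and 6 h and against untransfected cells. In these 3 comparisons it called 726, 1100 and 937 of all probe sets. The brighter 50% of probe sets gave 12 (pcDNA, 16 h against 0 h), 13 (pCTSH#1, 16 h against 6 h), 1 (pCTSH#1 against pcDNA, 6 h) and 1 (pCTSH#1 against untransfected cells). Averaging each gene's probe sets gave 12, 1 and 1 for pcDNA at 16 h against 0 h and the same 2 comparisons of pCTSH#1. Only the arrays compared, a fit with fewer samples, gave 2 and 2 in pcDNA and 3 and 5 in pCTSH#1 at 16 h. In that setting 20 of the 33 calls of named members were lost. The cause of these shifts was not tested. The share of all probe sets called is given for the first fit and the variance trend. Under centring and loess it is given at 16 h against 0 h only. For the other counts here and below it was not worked out. A change in those counts therefore cannot be told apart from a change over all probe sets.

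Leaving out 1 array gave 4 to 8 and 4 to 10 calls in pcDNA and 3 to 4 and 4 to 7 in pCTSH#1 at 16 h against 0 h and 6 h, 0 to 1 for pCTSH#1 at 6 h and 0 to 1 for the lines at 16 h (1 without pCTSH#1 replicate 1). The counts of 4 in pcDNA came without replicate 1 at 0 h, replicate 2 at 6 h or replicate 2 at 16 h. With the replicate block the calls were 7 and 9 in pcDNA and 7 and 7 in pCTSH#1, and Rpl11 (pcDNA) and Rpl3l (pCTSH#1) lost their call from 6 h to 16 h. Among all probe sets called at 6 h, loess moved the share of higher calls from 39.6% to 51.6% in pcDNA and from 40.1% to 51.9% in pCTSH#1, and centring moved it from 47% to 57.9% for pCTSH#1 from 6 h to 16 h. The pyrimidine run count was 21 of 32 with members matched by symbol. With centring 35 of 38 members, and 27 without, had their highest group mean at 16 h. Rpl30, at background, limits what can be said of it.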
